A study of Homo sapiens with 4 samples.

Results

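YAP1, WWTR1 (the gene of TAZ), the factors TEAD1, TEAD2, TEAD3 and TEAD4, and 4 widely used targets of their complex, CTGF, CYR61, ANKRD1 and AMOTL2, were followed in growing fibroblasts, in oncogene-induced senescence and after expression of a cleaved histone H3.3. Their FPKM differences between these same libraries were among the values known when the genes were picked, so the members were chosen by readouts that recur below, and every level and difference of a member is a description with no support from its choice. These 10 genes were found by symbol in the deposited tables, each at a single locus that joins no other gene, among 12183 genes compared. A gene was compared when it reached 1 FPKM (sequenced fragments relative to transcript length and library size) in at least 1 library, and all 10 did.  With 1 library in each group there are no replicates, and no test, SD or standard error is given.

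YAP1 and TAZ are transcriptional coactivators that cannot bind DNA by themselves and reach it through TEAD factors. The Hippo kinases STK3, STK4, LATS1 and LATS2 phosphorylate both coactivators, which keeps them in the cytoplasm or leads to their breakdown, while cell spreading, stiff matrix and tension on actin fibres favour their entry into the nucleus. Because this control acts on the proteins, transcript levels of YAP1 and WWTR1 are not a measure of their activity, and transcripts of target genes are commonly read in their place. In fibroblasts the pathway is known for matrix and contractile gene programs.

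The cells were IMR90, a human lung fibroblast line, all at passage 16, from which poly(A) RNA was sequenced. Growing cells carried the empty retroviral vector pBabe and were kept for 13 days. Oncogene-induced senescence (OIS) was set off in cells carrying ER:RasV12, a fusion that tamoxifen switches on, with 10 nM tamoxifen for 8 days. Cells given Flag-tagged cleaved H3.3 (H3.3cs1) from a retrovirus were taken 3 days (early) and 13 days (late) after infection. No empty-vector library of day 3 and no tamoxifen-treated library without the fusion was analysed here, so in the early library the effects of the histone, of a recent infection and of days in culture cannot be told apart, nor the oncogene and tamoxifen in OIS. From early to late, days since infection and days with the histone cannot be told apart either. The full time in culture of the OIS cells is not given in the sources used here, so time may also part OIS from growing and late.

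The libraries were alike in breadth, with 11063 to 11271 genes at 1 FPKM or more, and a rough estimate from the smallest values put the depth of OIS, early and late at 82.6%, 94.9% and 79.8% of the growing library. The names in the header lines of the tables stand 1 column to the left of the values, so samples were taken from GEO's own record of each file. HRAS was at 3153 FPKM in the library labelled OIS and at 41.9 to 49.8 FPKM in the other 3, which fits the labels and not the header names. H3F3B, a gene of H3.3, was at 229 FPKM in early and 450 in late against 105 in growing and 90.5 in OIS, and no gene checks which of both H3.3cs1 libraries is the early one. All 10 fibroblast markers were at 1 FPKM or more in every library, with a summed level of 10440 FPKM in growing, 6073 in early, 11090 in late and 4968 in OIS. Markers of other cell types were partly present. Of 9 endothelial markers, 2 reached 1 FPKM in growing, 1 in early, 0 in late and 4 in OIS, with a summed level of 3.09 FPKM in growing, 2.41 in early, 1.33 in late and 22.2 in OIS. In OIS this sum was mostly CLDN5 (11.6 FPKM, against 0.178 in growing), ROBO4 (4.47) and TIE1 (4.05), while CDH5 was listed at 0 in every library and PECAM1 at 0 in all but OIS (0.115). Of 9 epithelial markers, 5 reached 1 FPKM in growing, 5 in early, 4 in late and 4 in OIS. They summed to 93.2 FPKM in growing, 76.0 in early, 189.5 in late and 23.5 in OIS, mostly KRT18 (80.0 in growing and 170 in late). KRT8 was at 5.08 to 10.1 FPKM and MUC1 at 1.06 to 4.57. In early KRT19 was at 10.9 FPKM (2.33 in growing) and CLDN4 at 4.25 (1.54 in growing). EPCAM and CDH1 lay below 0.5 FPKM and NKX2-1 at 0 in every library. Of 8 leukocyte markers only CD68, in a locus joined with MPDU1, reached 1 FPKM (39.3 to 89.4), and PTPRC was at 0.0396 FPKM or less. Giving the named genes an equal sum in every library shifted the median of all genes to -0.16 for OIS and 0.19 for early against growing, from 0.032 and -0.025 as deposited. The share of changed genes that were higher then went from 52.8% to 37.7% for OIS against growing, from 26.1% to 48.3% for early against growing, from 61.7% to 36.4% for late against early and from 56.8% to 41.3% for OIS against late.

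TEAD factors bind the MCAT element, whose core reads GGAATG, so the 250 bases before the annotated starts of the members are shown for those target genes that hold it. RefSeq windows (build GRCh38.p14, on which the FPKM values do not rest) were at hand for 7 of the 10 members, and not for TEAD1, TEAD4 and CYR61. The windows are chr6:131951373-131951622 on the minus strand for CTGF (CCN2 in RefSeq), chr10:90921088-90921337 on the minus strand for ANKRD1 and chr3:134374448-134374697 on the minus strand for AMOTL2. Each lies directly upstream of the annotated first exon and is printed 5′ to 3′, with GGAATG, or CATTCC where it lies on the other strand, in capitals.
CTGF: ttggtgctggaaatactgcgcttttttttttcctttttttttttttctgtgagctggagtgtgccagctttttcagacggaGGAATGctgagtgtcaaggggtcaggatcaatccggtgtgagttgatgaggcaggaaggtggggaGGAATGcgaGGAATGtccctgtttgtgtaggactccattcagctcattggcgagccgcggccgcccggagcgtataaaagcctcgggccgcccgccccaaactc
ANKRD1: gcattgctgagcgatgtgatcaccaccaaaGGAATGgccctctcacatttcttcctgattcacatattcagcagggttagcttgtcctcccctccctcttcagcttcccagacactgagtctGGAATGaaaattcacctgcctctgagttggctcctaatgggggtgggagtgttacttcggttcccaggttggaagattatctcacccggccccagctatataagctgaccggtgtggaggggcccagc
AMOTL2: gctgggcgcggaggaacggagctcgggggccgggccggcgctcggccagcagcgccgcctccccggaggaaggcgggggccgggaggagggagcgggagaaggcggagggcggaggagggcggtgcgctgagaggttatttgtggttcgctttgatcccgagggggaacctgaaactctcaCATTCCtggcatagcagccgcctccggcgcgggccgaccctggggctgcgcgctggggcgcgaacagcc

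The CTGF window held GGAATG at 3 places, at bases -169 to -164, -104 to -99 and -95 to -90 from the start. The ANKRD1 window held it at 2 places, -220 to -215 and -128 to -123. AMOTL2 has 2 annotated starts, and 1 copy, on the opposite strand at -69 to -64, lay before the downstream one. YAP1 held 1 copy at -162 to -157, and WWTR1, TEAD2 and TEAD3 held none in their windows. Of all 35116 RefSeq windows of this length, 11.9% held at least 1 copy on either strand, 0.94% at least 2 and 0.0826% at least 3. TGACTCA on either strand, an AP-1 site found in 4.2% of all windows, and the CArG box of SRF, found in 1.16%, did not occur in any window of the members. A match of letters is a description and not evidence of a bound site.

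**Figure D1:**
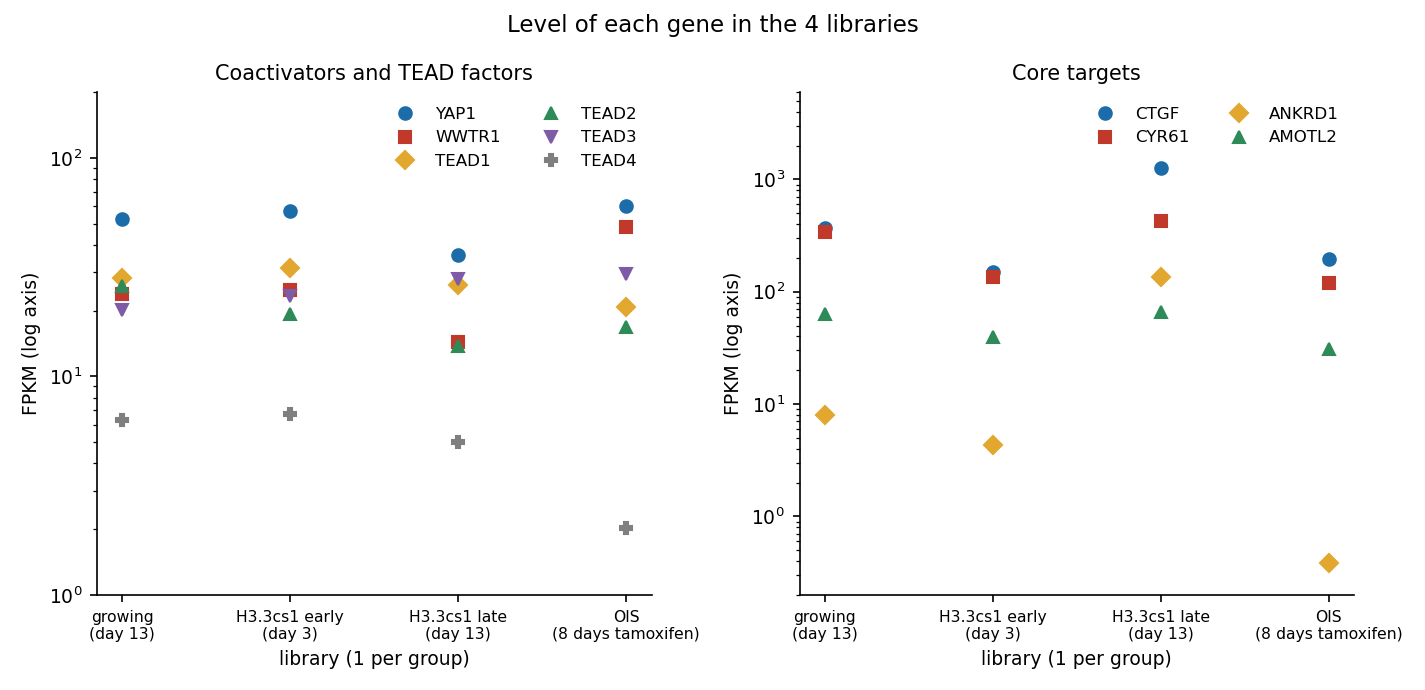
FPKM of the 10 genes (log axis) in the 4 libraries, 1 point per gene and library, with no error since each group has 1 library. Coactivators and TEADs stay within a 3.35-fold span each, while ANKRD1 runs from 0.382 FPKM in OIS to 135 in H3.3cs1 late.

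The coactivators were expressed at moderate levels in all 4 libraries. YAP1 was at 52.7 FPKM in growing, 57 in early, 35.8 in late and 59.9 in OIS. The late library was the low one, and the other 3 lay close together. WWTR1, which encodes TAZ, was at 23.8 FPKM in growing, 24.9 in early, 14.4 in late and 48.1 in OIS. Growing and early were alike, OIS was high and late was low.

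Folds here and below are taken on log2(FPKM + 1), where low genes appear to change less than they do, and the words rose and fell stand for differences of at least 2-fold. No coactivator passed that size against growing. WWTR1 in OIS came closest, at 1.98-fold above growing (a log2 difference of 0.98, higher than that of 90.6% of compared genes), and it passed with a pseudocount of 0.1 (1.01). WWTR1 was 1.62-fold below growing in late, and 3.19-fold higher in OIS than in late. YAP1 was 1.46-fold below growing in late. In OIS YAP1 lay 0.18 above growing on the log2 scale, and 0.050 below it (-0.050) when library sums were made equal.

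The balance of both coactivators therefore differed between libraries. FPKM of YAP1 was 2.21 times that of WWTR1 in growing, 2.29 times in early and 2.50 times in late, but 1.25 times in OIS. Their summed level was 76.5 FPKM in growing, 81.9 in early, 50.2 in late and 108 in OIS. WWTR1-AS1, the antisense neighbour of WWTR1, was at 0.156 FPKM or below in all libraries, and how the counting treated strand is not given in the sources used here.

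TEAD1, TEAD2 and TEAD3 were the abundant DNA-binding partners, and TEAD4 was the low one in every library. TEAD1 was at 28.3 FPKM in growing, 31.2 in early, 26.2 in late and 20.7 in OIS. TEAD2 was at 26.0 FPKM in growing, 19.3 in early, 13.8 in late and 16.8 in OIS. The growing library was the highest for TEAD2 and the late library the lowest, 1.83-fold below growing.

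TEAD3 was at 20.1 FPKM in growing, 23.2 in early, 27.8 in late and 29.5 in OIS, so growing was here the lowest. TEAD4 was at 6.32 FPKM in growing, 6.70 in early, 5.01 in late and 2.02 in OIS. OIS stood apart for TEAD4, which fell there by 2.43-fold and was the only one of the 6 coactivator and TEAD genes to pass 2-fold against growing in any of the 3 libraries. Under the 9 processing alternatives its log2 difference in OIS lay between -1.60 and -1.18.

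**Figure D2:**
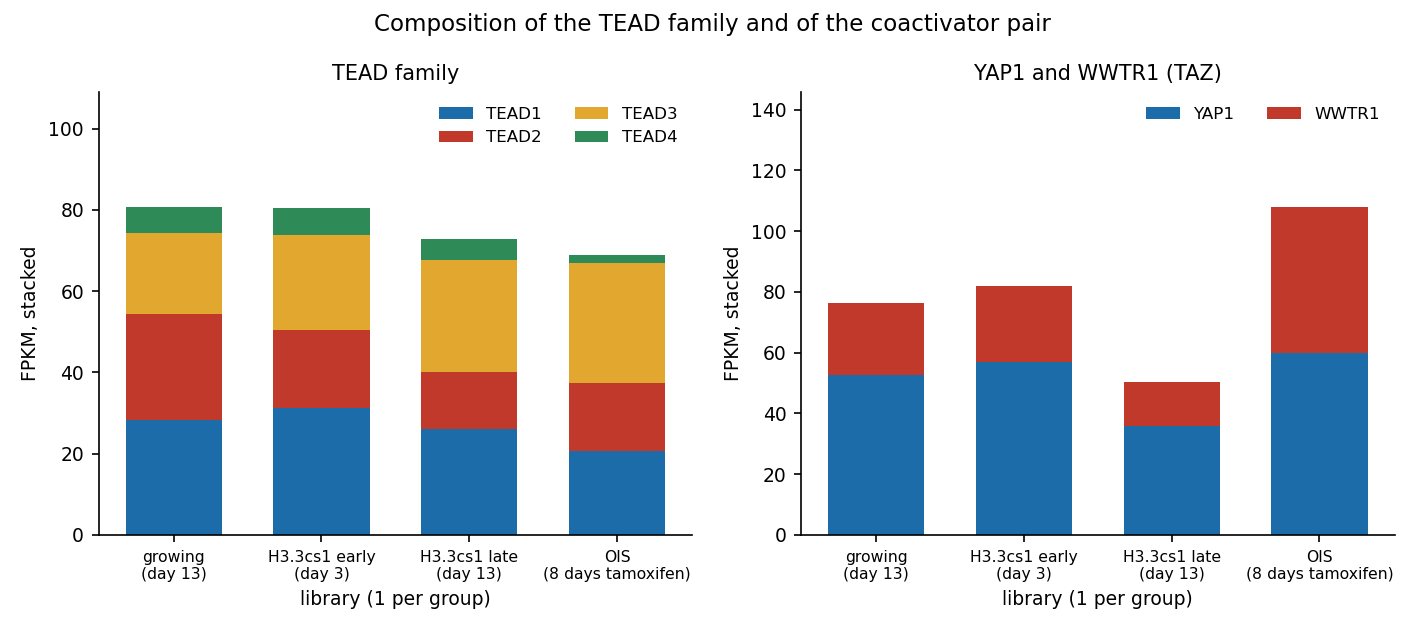
Stacked FPKM of TEAD1 to TEAD4 (left) and of YAP1 and WWTR1 (right) in each library, 1 library per group. The TEAD total stays between 69.0 and 80.8 FPKM while TEAD3 grows from 24.9% of it in growing to 42.7% in OIS, and the coactivator total runs from 50.2 FPKM in late to 108 in OIS.

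The summed TEAD level varied little, at 80.8 FPKM in growing, 80.5 in early, 72.8 in late and 69.0 in OIS, whereas its make-up did not stay the same. TEAD1 held the largest share in growing (35.1%) and early (38.8%). TEAD3 held the largest share in OIS (42.7%) and late (38.1%), against 24.9% in growing. TEAD2 went from 32.2% in growing to 24.1% in early, 19.0% in late and 24.4% in OIS. TEAD4 made up 7.82% in growing and 2.92% in OIS. Ratios within a library do not depend on the scaling between libraries, though each rests on 1 library.

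ANKRD1 and CTGF spanned a far wider range than any factor, with a highest over lowest FPKM of 353 and 8.45. That of CYR61 (3.59) was close to that of WWTR1 (3.35), the widest factor, and that of AMOTL2 (2.13) was smaller. All 4 targets were highest in H3.3cs1 late, AMOTL2 only by 65.7 against 63.8 FPKM in growing. CTGF encodes a secreted matricellular protein (CCN2) tied to fibrosis, and stood at 366 FPKM in growing, 150 in early, 1267 in late and 197 in OIS. The late library was thus far above the others, and CTGF ranked 30th by FPKM among all named genes there, against 185th in growing. CYR61 encodes the related matricellular protein CCN1, and was at 340 FPKM in growing, 135 in early, 430 in late and 120 in OIS. For CYR61 growing and late were the high pair, and OIS and early the low pair.

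ANKRD1 encodes a nuclear and sarcomeric ankyrin repeat protein of heart and stressed cells. It was at 8.07 FPKM in growing, 4.31 in early, 135 in late and 0.382 in OIS, the widest span of the 10 genes. AMOTL2 encodes a junctional angiomotin that binds YAP1 and restrains it, so that this target is also a feedback inhibitor. It was at 63.8 FPKM in growing, 39.3 in early, 65.7 in late and 30.8 in OIS. As for CYR61, growing and late formed the high pair, here nearly equal.

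**Figure D3:**
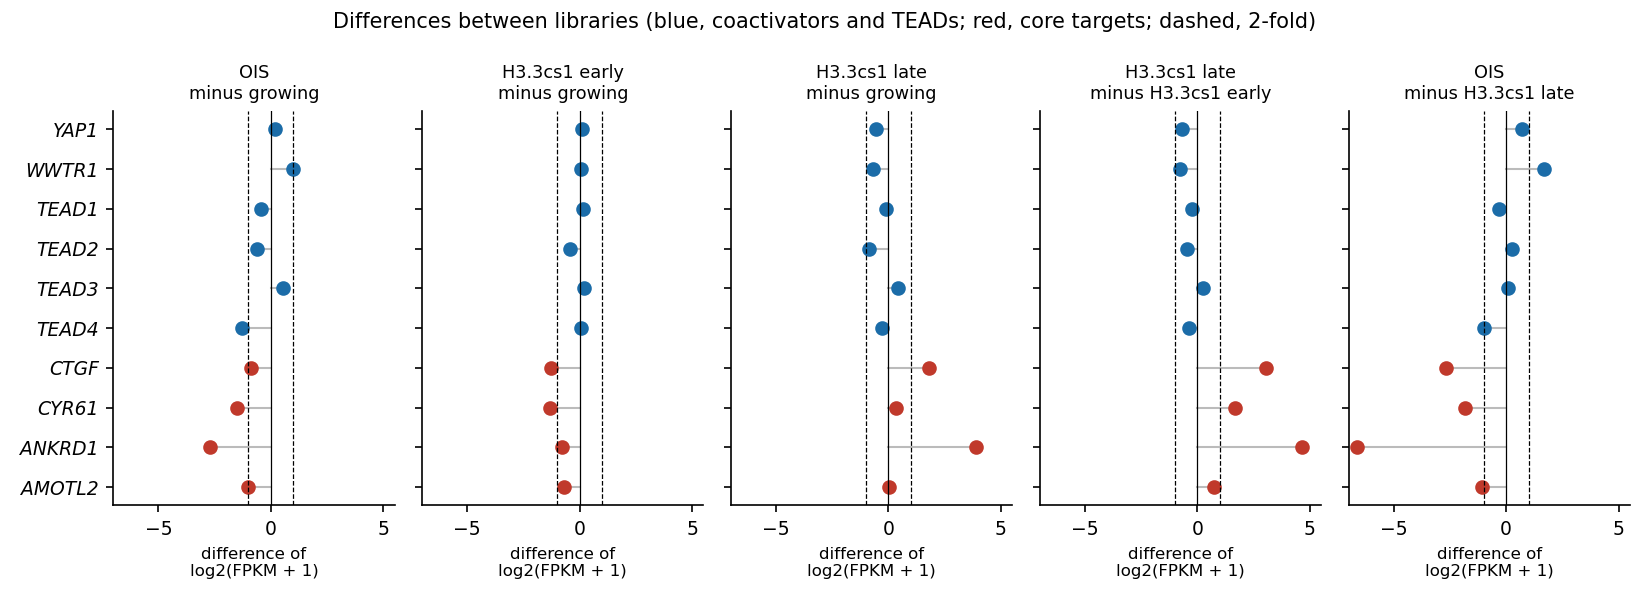
Difference of log2(FPKM + 1) for each of the 10 genes (rows) in 5 comparisons (panels), 1 library against 1 library, with dashed lines at 2-fold. Core targets (red) lie below 0 in OIS and H3.3cs1 early and above 0 in H3.3cs1 late, while the coactivators and TEADs (blue) stay within 2-fold of growing except TEAD4 in OIS.

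In RAS-induced senescence the targets were low. ANKRD1 fell 6.56-fold against growing, CYR61 fell 2.82-fold and AMOTL2 fell 2.04-fold, while CTGF, at 1.85-fold below growing, reached 2-fold only when library sums were made equal (-1.12). Of the 10 genes 4 fell (TEAD4 and these 3 targets) and 0 rose, where 8.17% of all compared genes fell and 9.13% rose (17.3% either way). The median of the 4 targets was -1.26 against 0.032 for all compared genes, and that of the 6 factor genes was -0.13. The value of ANKRD1 in OIS lies below 1 FPKM, so its fold depends on the pseudocount, and its log2 difference ran from -4.08 to -2.61 over the alternatives. Marker genes differed in OIS as well. The summed fibroblast markers were at 4968 FPKM in OIS against 10440 in growing, with COL1A1 at 1012 against 4156. VIM (2858 against 3281) and TWIST1 (10.6 against 10.7) differed little. PDGFRA (52.3 against 27.3) and S100A4 (7.47 against 6.75) were higher in OIS. The summed endothelial markers were also higher, at 22.2 against 3.09 FPKM. Of the 10 housekeeping genes, 4 lay above growing in OIS and 6 below, with a median of -0.11. ACTB was at 2916 against 5616 FPKM and TUBB at 348 against 1019, while PGK1 was at 260 against 166. The part of these genes in the result was not tested. In bulk RNA, fewer cells of a kind and less RNA per cell cannot be told apart.

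At day 3 of cleaved H3.3 the targets were again below growing cells of day 13, with the factors near the growing level. CYR61 fell 2.51-fold and CTGF fell 2.44-fold, and both lay just under 2-fold after quantile normalization (-0.96 and -0.94). ANKRD1 was 1.71-fold and AMOTL2 1.61-fold below growing. Of the 10 genes 2 fell and 0 rose, where 3.96% of all compared genes fell and 1.4% rose (5.37% either way). The 6 factor genes had a median of 0.093, and the 4 targets one of -1.03, against -0.025 for all compared genes. With equal library sums these were 0.34 for the factor genes and -0.79 for the targets, and under quantile normalization 0.22 and -0.86. ACTB was at 3169 FPKM and the summed fibroblast markers at 6073 FPKM in this library, both below growing. Among those markers S100A4 went the other way, at 18.3 FPKM against 6.75 in growing. The part of these genes was not tested.

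At day 13 of cleaved H3.3 CTGF and ANKRD1 were far above growing, and CYR61 and AMOTL2 were not. ANKRD1 rose 15.0-fold, the 15th largest difference of the 12183 genes, and CTGF rose 3.45-fold, with 0.862% of genes above it. CYR61 was 1.26-fold above growing. AMOTL2 was 1.03-fold above growing, a log2 difference of 0.041 that went to -0.0011 under quantile normalization. Of the 10 genes 2 rose and 0 fell, where 3.51% of all compared genes rose and 5.47% fell (8.99% either way). The 4 targets had a median of 1.06 and the 6 factor genes one of -0.41, with 5 of the 6 below 0, against -0.040 for all compared genes. The summed fibroblast markers, at 11090 FPKM, and ACTB, at 5623 FPKM, were close to growing, but single markers went both ways. COL1A1 (5172 against 4156 FPKM), COL1A2, COL3A1, THY1, PDGFRB and S100A4 were above growing. VIM (2291 against 3281), PDGFRA (18.5 against 27.3), TWIST1 (6.14 against 10.7) and FAP were below it. KRT18 was at 170 FPKM against 80.0. The part of these markers was not tested.

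**Figure D4:**
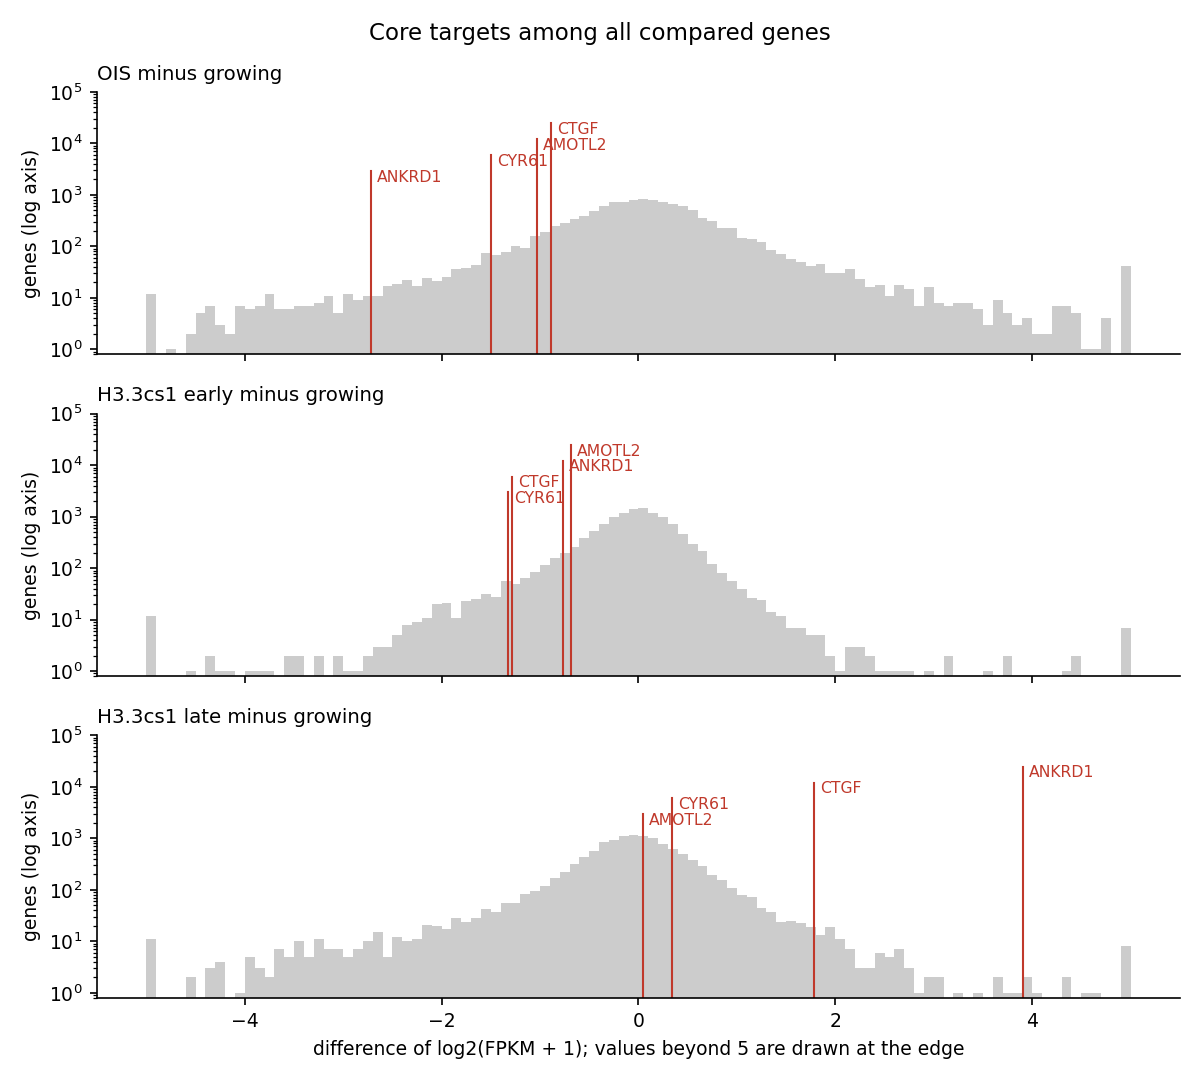
Histograms of the difference of log2(FPKM + 1) from growing for all 12183 compared genes (number of genes on a log axis), with the 4 core targets marked in red. ANKRD1 moves from -2.71 in OIS to 3.90 in H3.3cs1 late, and CYR61 and AMOTL2 sit within the bulk of genes in late.

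The targets also parted from each other. CTGF and CYR61 were near equal in growing (a CTGF to CYR61 ratio of 1.08) and early (1.11), but CTGF was 1.65 times CYR61 in OIS and 2.95 times in late. The ratio of CTGF to AMOTL2 was 5.74 in growing, 3.82 in early, 19.3 in late and 6.41 in OIS. Within the 4 targets the rise at late was thus carried by ANKRD1 and CTGF.

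From day 3 to day 13 of cleaved H3.3, ANKRD1 rose 25.6-fold, CTGF rose 8.40-fold and CYR61 rose 3.17-fold, and AMOTL2 was 1.66-fold higher. ANKRD1 and CTGF held places 13 and 47 among the largest differences. Of the 10 genes 3 rose and 0 fell, where 5.47% of all compared genes rose and 3.4% fell (8.87% either way). Both coactivators went the other way within 2-fold, with log2 differences of -0.66 for YAP1 and -0.75 for WWTR1. The median of the 4 targets was 2.37 and that of the 6 factor genes -0.41, against -0.044 for all compared genes.

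Set directly against each other, OIS and H3.3cs1 late differed at least 2-fold at every target. OIS was lower than late by 98.3-fold for ANKRD1, 6.39-fold for CTGF, 3.57-fold for CYR61 and 2.1-fold for AMOTL2. The fold of ANKRD1 rests on 0.382 FPKM in OIS, and its log2 difference ran from -8.13 to -6.48 over the alternatives. ANKRD1 had the 7th lowest difference of all compared genes. WWTR1 was the exception in direction, 3.19-fold higher in OIS, and TEAD4, at 1.99-fold lower, passed 2-fold under 4 alternatives. Of the 10 genes 4 were lower and 1 higher, where 8.51% of all compared genes were lower and 11.2% higher (19.7% either way). The comparisons with growing share that library, and late enters 3 of the 5 comparisons, so their values are not independent of each other.

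**Figure D5:**
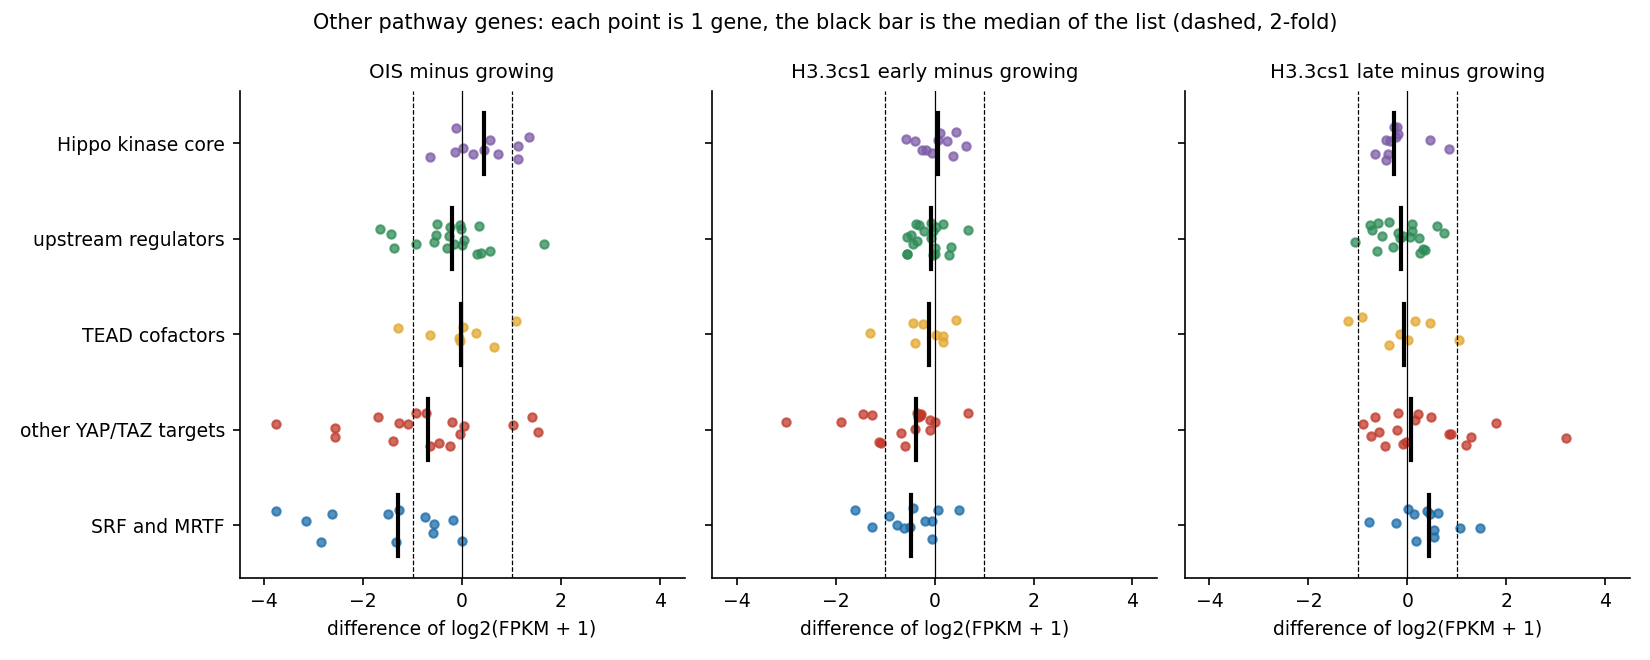
Difference of log2(FPKM + 1) from growing for the genes of 5 other lists, 1 point per gene, with the list median as a black bar and dashed lines at 2-fold. The medians of the other YAP and TAZ targets and of the SRF and MRTF genes are -0.69 and -1.30 in OIS and 0.068 and 0.43 in H3.3cs1 late.

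Upstream of the coactivators, 8 of the 11 Hippo kinase core genes lay above growing in OIS and 3 (STK3, LATS2 and TAOK2) below. Of the 11, 3 rose and 0 fell, where 9.13% of all compared genes rose and 8.17% fell. Those that rose were MAP4K4 (2.56-fold, from 53.7 to 139 FPKM), a kinase that can act on LATS, STK4 (2.20-fold, from 6.30 to 15.0 FPKM), the gene of MST1, and SAV1 (2.19-fold, from 13.6 to 31 FPKM), the scaffold of MST kinases. The median of the list was 0.45 for OIS, 0.062 for early and -0.28 for late, and 0 of 11 passed 2-fold in early or late against growing, where 5.37% and 8.99% of all compared genes did. LATS2, the kinase that phosphorylates YAP1 and is itself a target gene, was at 17.8 FPKM in growing, 13.3 in early, 32.6 in late and 10.9 in OIS, and rose 2.36-fold from early to late.

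The 20 junctional and upstream regulators were mixed. Of the 20, 1 rose and 3 fell in OIS, where 9.13% of all compared genes rose and 8.17% fell, and counts this small were not tested. AJUBA (3.15-fold lower, 25.9 to 7.53 FPKM) and WTIP (2.61-fold lower), LIM proteins that restrain LATS kinases, fell in OIS, as did FAT4 (2.70-fold lower), a giant cadherin. CSNK1E, a casein kinase, rose 3.14-fold there, to 159 FPKM. In late DCHS1, the cadherin that pairs with FAT4, fell 2.07-fold, from 2.46 to 0.672 FPKM. NF2, the gene of merlin, was at 32.3 FPKM in growing, 24.5 in early, 54.5 in late and 22.4 in OIS, and rose 2.18-fold from early to late. The list median was -0.20 in OIS, -0.071 in early, which turned to 0.17 with equal library sums and to 0.010 under quantile normalization, and -0.12 in late.

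Other TEAD cofactors had medians near 0 against growing (-0.012 for OIS, -0.11 for early, -0.066 for late), of which the early one turned positive with equal library sums (0.11), an FPKM minimum of 5 (0.022) or no filter (0.011), and the late one with an FPKM minimum of 5 (0.011) or quantile normalization (0.029). Of the 10 genes in the files 8 were compared, and VGLL1 and VGLL2 lay at or near 0. VGLL3, a cofactor that competes with YAP1 for TEADs, fell 2.46-fold in OIS, from 10.1 to 3.50 FPKM. JUN rose 2.12-fold in OIS, RUNX1 rose 2.08-fold in late, and FOSL1, the AP-1 subunit that binds enhancers with TEADs, fell 2.49-fold in early and 2.29-fold in late.

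A published 22-gene signature of YAP and TAZ holds the 4 targets above and 18 others, all 18 compared. In OIS 7 of the 18 fell and 3 rose (median -0.69), in early 6 fell and 0 rose (median -0.38), and in late 4 rose and 0 fell (median 0.068). From early to late 8 rose and 0 fell (median 0.44). Of all compared genes 8.17% fell and 9.13% rose in OIS, 3.96% fell and 1.4% rose in early, and 5.47% fell and 3.51% rose in late. From early to late 3.4% fell and 5.47% rose. LATS2 is also in the Hippo kinase list, and PTPN14 in that of the upstream regulators.

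Some of the 18 were highest in late and low in OIS and early, as the 4 targets were. IGFBP3, which binds insulin-like growth factors, was at 296 FPKM in growing, 35.8 in early, 1023 in late and 48.8 in OIS. TGFB2, a TGF-beta ligand, was at 4.23 FPKM in growing, 3.06 in early, 47.5 in late and 1.15 in OIS. CCDC80, a matrix protein, was at 185, 67.4, 343 and 12.6 FPKM in that order, and CRIM1, a membrane protein that binds BMPs, at 198, 81.6, 230 and 32.7 FPKM.

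Others had another pattern. F3, the gene of tissue factor, was at 129 FPKM in growing, 33.9 in early, 317 in late and 344 in OIS, so that it rose in both OIS and late. FJX1 (2.89-fold) and NT5E (2.03-fold), the gene of the ectonucleotidase CD73, rose in OIS as well. In late 9 of the 18 lay above growing and 9 below, with the rises being those of TGFB2 (9.28-fold), IGFBP3 (3.45-fold), F3 (2.45-fold) and GADD45A (2.28-fold). AXL lies in a locus joined with HNRNPUL1, so its value, 2.63-fold lower in OIS, is that of both.

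Genes of SRF and its MRTF cofactors, which answer to actin as YAP1 does, lay below growing in OIS as deposited, in 12 of 12 listed genes (MKL2 only by 1.65 against 1.63 FPKM). Of the 12, 7 fell in OIS (median -1.30), where 8.17% of all compared genes fell, and 2 fell in early (median -0.47), where 3.96% fell. In late 2 rose (median 0.43), where 3.51% of all compared genes rose, 10 lay above growing and 2 (MYOCD and MKL2) below. In none of these libraries did a listed gene pass 2-fold the opposite way (0 in each). TAGLN fell 13.5-fold, CNN1 fell 8.91-fold, ACTG2 fell 7.24-fold and ACTA2 fell 6.21-fold in OIS. CNN1 rose 2.76-fold in late, to 188 FPKM. SRF itself was at 17.9 to 20.5 FPKM in the 4 libraries, and MKL1, which encodes MRTF-A, at 9.61 FPKM in OIS and 14.2 to 22 FPKM in the others. The summed smooth muscle markers, nearly all of it ACTG2, which is also in the list of 12, were at 479 FPKM in growing, 254 in early, 545 in late and 63.8 in OIS, with MYH11 and DES below 1 FPKM, and their part was not tested. These lists were drawn up with earlier results of these data known.

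Of the CCN genes, CTGF and CYR61 were at 119.7 FPKM or more in every library, while NOV was at 1.62 to 3.07 FPKM and WISP1, WISP2 and WISP3 lay below 0.5 FPKM. Of the relatives of ANKRD1, ANKRD2 was at 0.322 FPKM or less. ANKRD23, in a locus joined with ANKRD39, was at 8.64 FPKM in growing, 7.08 in early, 9.12 in late and 11.4 in OIS, above ANKRD1 in every library but late. AMOTL2 was the most abundant angiomotin in every library, with AMOTL1 at 8.27 to 13.2 FPKM and AMOT at 0.765 to 2.36 FPKM, lowest in OIS (1.9-fold below growing).

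The genes most like each target were found by the Euclidean distance over the 3 log2 differences from growing, among the genes above 0 in all 4 libraries and at 5 FPKM in at least 1. Nearest to CTGF were SFTA1P (distance 0.27), NPAS1 (0.39) and SNORA25 (0.44). Nearest to CYR61 were PDCD1LG2 (0.16), FSTL3 (0.24) and ADAMTS1 (0.28), and nearest to AMOTL2 were TMCO3, ADCK5 and GPC1 (0.13 each). ANKRD1 had no close neighbour, with MAMDC2 at 1.5, TGFB2 at 1.64 and CPA4 at 1.81. SFTA1P was at 1.22 FPKM in growing, 0.0654 in early, 7.51 in late and 0.237 in OIS. Its distance to CTGF therefore depends on the pseudocount, and its FPKM differed between libraries by more than that of CTGF. SNORA25 is a small nucleolar RNA, for which FPKM from poly(A) libraries is uncertain. A distance over 3 differences that share the growing library is a description with no replicate check.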

How the data were processed

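The deposited values are FPKM, 1 per locus and library, made by the authors. Per the submitters' processing notes, hg19, Bowtie2, Cufflinks 2.1.1 and TopHat2 2.0.3 were used, with no roles listed. How strand, multiply mapping reads and library scaling were handled is not given in the sources used here. No counts were used, so intervals could not be given.

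Of 26468 loci, 2310 without a gene name were left out. They held 57.9% of summed FPKM in early, against 49% in growing, 48% in late and 47.4% in OIS, so named genes made up a smaller part of the early library. A symbol on several lines (540 symbols) was given their sum, and 822 joined loci kept their joined names. The 12183 genes at 1 FPKM in at least 1 library were compared as log2(FPKM + 1), with python 3.11.15, numpy 2.4.6 and pandas 2.3.3. Changed means at least 2-fold. A simulation with changes set past 2-fold checked only that the code applied the size rule. It does not bear on the calls made in these libraries, whose noise is not known. Relative depth is the inverse of the commonest ratio of FPKM to growing, among detected loci below 0.05 FPKM in both libraries.

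The members, the lists and the rules were chosen with earlier results of these data known. Named genes were the members, HRAS and H3F3B, up to 4 genes per list with the largest difference, and the 3 nearest genes of each target. Others named (WTIP, NF2, CRIM1, GADD45A, FJX1, NT5E, AXL, SRF, MKL1, STK3, TAOK2, MYOCD, MKL2, marker genes and the relatives of members) were chosen after their values were seen. Of 9 lists, the housekeeping one had medians of -0.11, -0.24 and -0.14 in OIS, early and late against growing. The smooth muscle markers MYH11 and DES lay below 1 FPKM in every library. Alternatives were a pseudocount of 0.1, a minimum of 5 FPKM or none, 3 rescalings, the highest line of a symbol, and leaving out joined loci or genes listed at 0.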

Additional observations from a re-analysis of the deposited data

Results flagged for a closer look

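CTGF lay on opposite sides of growing at both times of H3.3cs1, with a log2 difference of -1.28 in early and 1.79 in late, both past 2-fold. The same was seen for ANKRD1 between OIS and H3.3cs1 late, at -2.71 in OIS and 3.90 in late. Each value compares 1 library with the growing library that all of them share, and the difference between them was not tested.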

How the results depend on the processing

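No paired analysis was possible because each group has 1 library. Of 450 values of the members under 9 alternatives (10 genes in 5 comparisons), 437 kept their direction and their side of 2-fold, 5 changed sign within 2-fold, 2 lost 2-fold, 6 passed it and 0 reversed a called change. With a pseudocount of 0.1, 1 member (WWTR1) rose in OIS in place of 0, 1523 genes fell in OIS against growing in place of 995, 437 rose in early in place of 171, 743 rose in late in place of 428, and 910 fell from early to late in place of 414. That pseudocount gives more weight to low values. Rescaled to the same sum, 316 genes rose in early and 808 fell from early to late. Under quantile normalization 0 members fell in early in place of 2. The causes of the last 3 were not tested. Depth is known only roughly, so how precise the lowest values are (ANKRD1 in OIS, TEAD4) cannot be given.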

Other observations

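Genes with several copies of the TEAD core letters before their start were set beside the rest, as a description chosen after the data were seen. Of 11584 compared genes with a single name, 9166 had a RefSeq window. The median log2 difference of H3.3cs1 late from growing was -0.055 for the 7948 genes with no GGAATG in any window, -0.039 for 1125 genes with 1, 0.081 for 86 with 2 and 0.79 for 7 with 3 or more. In OIS the same medians were 0.033, -0.033, 0.097 and -0.23, with no such order. The 7 genes were CTGF, MAMDC2, IDUA, EVI5L, EVI5, SYDE1 and C1R. CTGF, a member chosen for its values, is among them, and only CTGF, MAMDC2 and IDUA rose in late, while C1R fell (-1.34). Other members chosen in the same way lie in the class with 2 copies (ANKRD1), in that with 1 (YAP1 and AMOTL2) and in that with none (WWTR1, TEAD2 and TEAD3). The share that rose in late was 2.97% of genes with no copy, 4.44% with 1, 4.65% with 2 and 42.9% of these 7. The last class is small, and the order of the medians was not tested. MAMDC2, an extracellular matrix protein gene, was at 9.25 FPKM in growing, 6.34 in early, 55.3 in late and 0.890 in OIS. It was also the gene nearest to ANKRD1, though not close, at a distance of 1.5. Of the 18 other signature genes 13 had a window, and 5 of them held GGAATG, where 14.3% of genes do in any of their windows. Base composition, number of starts and expression level differ between such groups of genes, and their part was not tested.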
